A study of Homo sapiens with 18 samples.

Results

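The data compare cells given the solvent DMSO with cells given nothing, in a line of ZR-75-1 cells with a knockdown of ADAR. They hold 3 DMSO libraries and 3 untreated libraries of the knockdown line, chosen by sample title, which makes 6 of the 18 libraries of the series. The equal replicate numbers 1 to 3 served as a pairing block. ZR-75-1 cells are an established line from a luminal breast cancer and express the estrogen receptor. The series also holds a control line, labelled SHC, and cells given the transcription inhibitor triptolide at 100 nM, for which DMSO is the vehicle control. The knockdown cells of both groups grew in medium with 10% serum and were plated 24 h before treatment at 70% confluence. They then stood for 16 h in medium with 1% serum, either with DMSO or with no addition, before total RNA was taken. The labels give DMSO as 100 nM, which is also the concentration of triptolide, and the volume of solvent that this stands for is not given in the sources used here. They name 1 knockdown line and 1 control line, with no word on how the knockdown was made or on separate clones, and they call the replicates biological. Where replicates shared a culture, the p-values measure only the spread between these samples. A kit for stranded libraries from total RNA was used, with no selection for poly(A) tails, and the deposited values are counts of reads per gene.

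DMSO, dimethyl sulfoxide, dissolves compounds that water does not, and cells given the solvent alone show what the solvent does before an effect is credited to the drug. At the amounts used to freeze or differentiate cells it is known to slow the cell cycle and to alter chromatin and membranes, while the small amounts that carry a drug are commonly treated as inert. ADAR edits adenosine to inosine where RNA is double-stranded, which keeps a cell's own RNA from setting off the sensors of viral RNA. The mitochondrial genome is copied into long RNAs that are cut into ribosomal RNAs, transfer RNAs and the mRNAs of respiratory chain subunits, and its transcription and RNA decay run apart from those of nuclear genes.

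Counts in genes, in units of 1e6, ran from 26.7 to 31.6 in the 6 libraries, and from 28833 to 30610 genes had at least 1 count. Between 24.9% and 30.5% of the tallied reads went to no gene. Levels are given as counts per 1e6 counts (CPM) after TMM scaling. The untreated library of replicate 1 stood apart: its root mean square log2 difference from the DMSO library of the same number was 0.43 over 14038 genes, against 0.23 in pair 2 and 0.22 in pair 3. Its levels of RNY1, VTRNA1-3, MT-ND5, POLR2A and SON were the highest of the 6 libraries, and results that move most with it are also given without it. Libraries with different replicate numbers were further apart than DMSO and untreated libraries of 1 number. Their distance ran from 0.59 to 0.64 among untreated and from 0.53 to 0.56 among DMSO knockdown libraries.

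**Figure D1:**
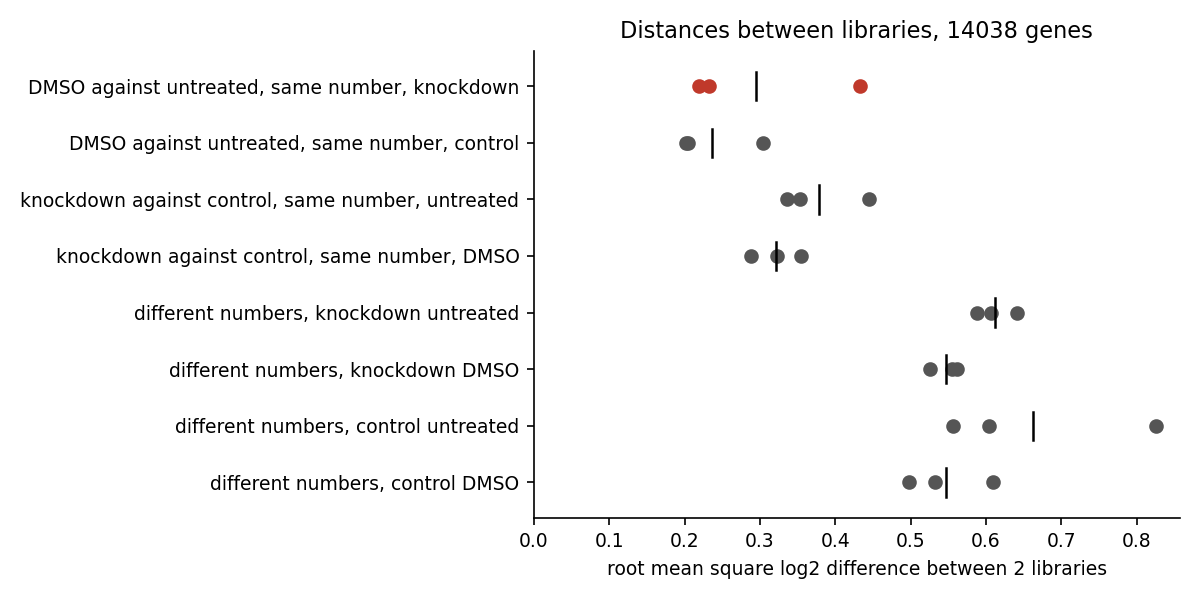
Root mean square log2 difference between 2 libraries (x axis) over 14038 genes at 1 CPM or more, for 8 kinds of pair (y axis). Each point is 1 pair of libraries, the vertical bars are means of 3 pairs, and the 3 red points are the DMSO and untreated pairs of the knockdown line, at 0.22, 0.23 and 0.43.

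ADAR mRNA (chr1:154554171-154600489, minus strand, hg19), the target of the knockdown, stood at 352, 339 and 195 CPM in untreated replicates 1 to 3 and at 293, 357 and 217 CPM in the DMSO replicates. In the control line it stood at 476, 665 and 297 CPM untreated and 458, 665 and 280.3 CPM with DMSO, so each knockdown library lay below the control library of the same number and treatment. The log2 change of ADAR with DMSO in the knockdown line was -0.03 (SE 0.18, 95% interval -0.40 to 0.35), and it became 0.17 without the untreated library of replicate 1. ADARB1, the second active editing enzyme of the family, stood at 10.7, 5.14 and 5.2 CPM untreated and 7.08, 6.71 and 5.76 CPM with DMSO, a log2 change of -0.06 (SE 0.19) that was 0.22 without that library. ADARB2, a family member without known activity, stayed under 1 CPM in all 6 libraries. All 14 luminal markers reached a mean of 1 CPM, and their summed level lay between 4736 and 6583 CPM untreated and between 4628 and 6621 CPM with DMSO. Of the markers of other cell types, 4 of 11 basal, 2 of 14 leukocyte, 2 of 11 stromal and 1 of 7 endothelial markers reached 1 CPM. Their sums overlapped between the groups, at 20.8 to 30.3 CPM untreated and 21.9 to 33.6 CPM with DMSO for the basal list. The sums of the other 3 lists lay at or below 25 CPM, and markers without a single count included CD3D, MS4A1, COL1A2, DCN, LUM, FAP, KDR and EMCN. PECAM1, a member of the 7 endothelial markers, was matched to no gene by symbol and has no level here. In bulk RNA, fewer cells of a type and less RNA per cell cannot be told apart.

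No gene was called between DMSO and untreated knockdown cells. Of 21285 genes tested, 0 (0.0%) had a Benjamini-Hochberg adjusted p under 0.05 in edgeR's quasi-likelihood test with the replicate block, and the lowest adjusted p was 0.632. At an unadjusted p under 0.05 there were 747 genes (3.51%), of which 200 (0.94%) were higher and 547 (2.57%) lower with DMSO. Without the untreated library of replicate 1 the number was 462. DESeq2 called 2 genes, both lower with DMSO, and gave 756 at an unadjusted p under 0.05. Without the low-count filter edgeR called 120 genes, 118 of them lower, and 6 when untreated replicate 1 was left out as well, an alternative added after the data were seen. MT-RNR1, MT-RNR2, CYP1A1 and ENSG00000269028, described below, were among these 6. The test without the filter ran with infinite prior degrees of freedom, so that every gene took the fitted spread of the trend. All 3 DMSO libraries lay below all 3 untreated libraries for 369 genes (1.73%) and above them for 348 (1.63%).

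The width of the intervals sets what this comparison could have shown. For 13988 genes (65.7%) the 95% interval of the log2 change lay wholly between -1 and 1, so that a change of 2-fold or more was outside it. Among genes of 10 to 100 CPM this held for 98.8% of 7569, and among genes of 100 CPM or more for 98.3% of 1203. It held for 86.4% of genes between 1 and 10 CPM and for 11.1% of the 7279 genes under 1 CPM. For genes under 1 CPM a change of 2-fold was therefore mostly not detectable at this depth. Over all genes the interval reached a median of 0.49 on the log2 scale to either side of the estimate. For scale, the same test and block called 123 genes (0.578%) between untreated knockdown and control cells and 12163 (57.1%) between triptolide and DMSO in the knockdown line. Between the replicate numbers 12923 genes (60.7%) differed.

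**Figure D2:**
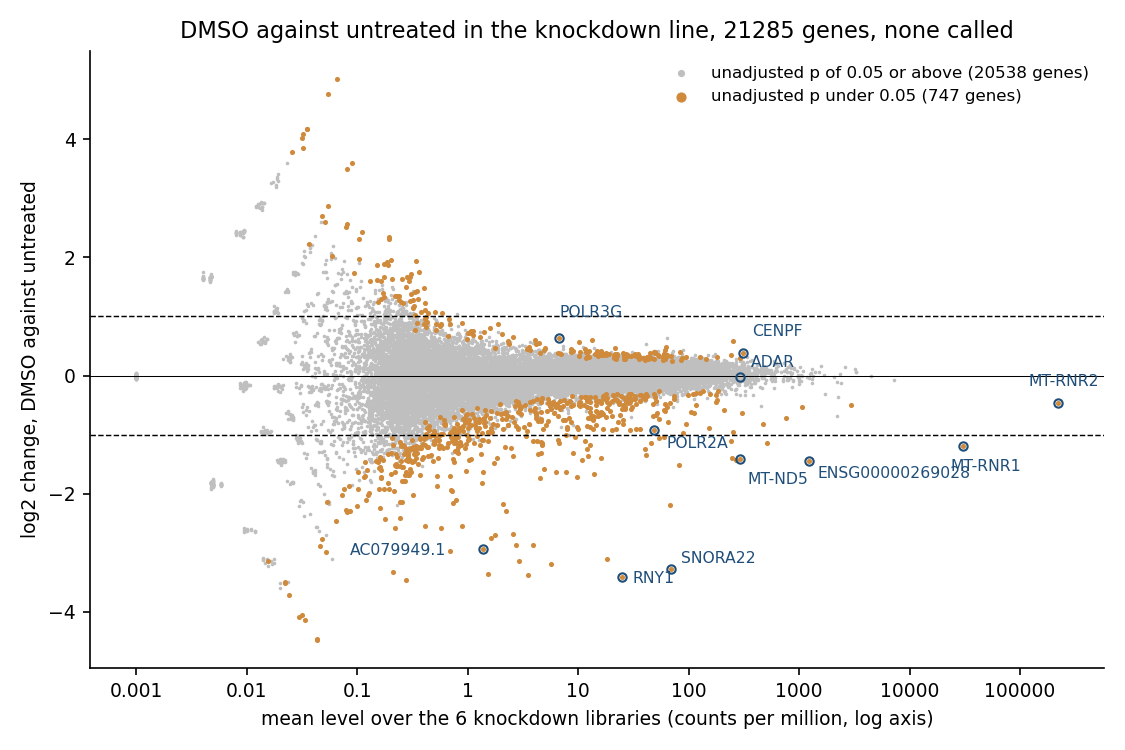
Log2 change with DMSO in the knockdown line (y axis) against the mean level over the 6 libraries in CPM (x axis, log scale, levels under 0.001 drawn at 0.001), 1 point per gene of 21285. The 747 orange points have an unadjusted p under 0.05, the dashed lines mark a change of 2-fold, and the genes named on the plot include RNY1 and the mitochondrial RNAs on the lower side.

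The 3 replicate pairs had little in common. Over 14038 genes of at least 1 CPM, 330 differed by more than 2-fold in pair 1 (46 higher and 284 lower with DMSO), 27 in pair 2 and 33 in pair 3. No gene differed by more than 2-fold in the same direction in all 3 pairs. DMSO was higher in all 3 pairs for 1912 genes and lower in all 3 for 1913. Across genes, which are not independent replicates, the log2 differences of the pairs correlated at r = 0.11 (pairs 1 and 2), 0.01 (pairs 1 and 3) and 0.06 (pairs 2 and 3). The pairs share no library.

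Transcript GC content went with the difference within the pairs, least in knockdown pair 3. With DMSO, GC-rich transcripts were lower and GC-poor ones higher in pair 1: the median log2 difference was 0.31 in the decile of genes with the lowest GC content (26.5% to 38.3%) and -0.15 in the decile with the highest (61.3% to 76.0%). In pairs 2 and 3 the same medians were 0.07 and -0.07, and 0.02 and -0.01. Spearman's rho across 13937 genes was -0.43, -0.20 and -0.11 in knockdown pairs 1 to 3, given as a description. In the control line, which has its own libraries, it was -0.39, 0.56 and 0.37, so the direction differed between pairs. With transcript length, rho was -0.08, 0.06 and 0.26 in knockdown pairs 1 to 3 and 0.10, -0.22 and -0.20 in the control pairs. The part of GC content or length in the differences below was not tested.

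**Figure D3:**
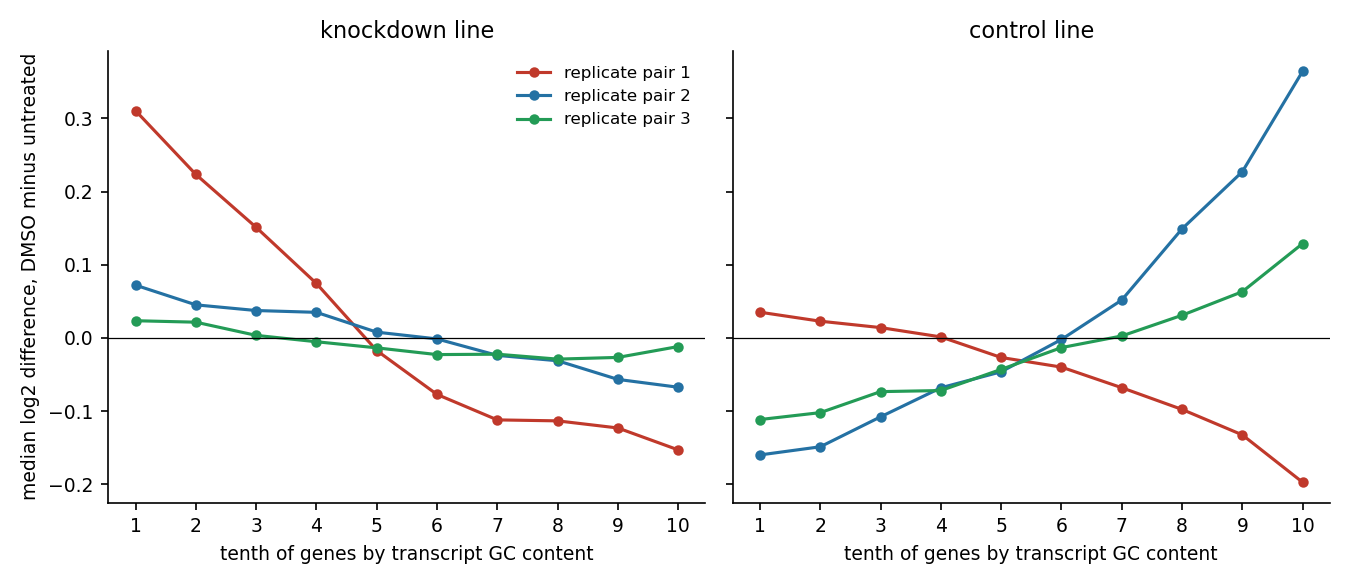
Median log2 difference between DMSO and untreated (y axis) in deciles of genes by GC content of the longest transcript (x axis, 1 lowest, 10 highest), 1 line per replicate pair, knockdown line left and control line right. In knockdown pair 1 the medians go from 0.31 to -0.15, while control pairs 2 and 3 slope the other way.

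RNA of the mitochondrial genome was lower with DMSO in most of the knockdown values. The share of ribosomal RNA differed most in pair 3 and the median of the mRNAs most in pair 1. Mitochondrial ribosomal RNA took 31.1%, 35.8% and 30.7% of the counts in genes in untreated replicates 1 to 3 and 23.5%, 31.2% and 20.2% in the DMSO replicates. The share was lower with DMSO in 3 of 3 pairs, by -7.55, -4.56 and -10.5 percentage points in pairs 1 to 3 and by a mean of -7.55 (SD 2.99, n = 3), with an exact two-sided paired permutation p of 0.25, the smallest that 3 pairs allow. The control line differed by -0.46, 4.04 and 0.97 points in its 3 pairs. A share of a library depends on all other RNA in it, so the scaled levels follow.

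MT-RNR1, the RNA of the small mitochondrial ribosomal subunit, stood at 62296, 29692 and 31542 CPM untreated and 14146, 25326 and 18587 CPM with DMSO. The groups did not overlap, and untreated replicate 1 was far above all others. Its log2 change was -1.19 (SE 0.29, 95% interval -1.79 to -0.59) with all libraries and -0.49 without that library. MT-RNR2, the RNA of the large subunit and the most abundant RNA counted, stood at 205509, 306789 and 247269 CPM untreated and 164990.4, 247122 and 141091 CPM with DMSO. It was lower with DMSO in each pair, the groups overlapped, and the log2 change of -0.46 (SE 0.17, 95% interval -0.82 to -0.11) was -0.48 without untreated replicate 1. Neither was called in edgeR's quasi-likelihood test, where both had an adjusted p of 1. Without the low-count filter edgeR called both, with adjusted p of 1.96e-39 for MT-RNR1 and 5.49e-09 for MT-RNR2. Both were also called when untreated replicate 1 was left out as well, at 9.25e-04 and 1.79e-07. The fit without the filter had infinite prior degrees of freedom and took each gene's spread from the trend. Its p-values therefore do not measure the spread of these 2 RNAs between replicates. For the fit that also left out untreated replicate 1 the prior is not given here.

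All 13 mitochondrial mRNAs had a negative log2 change, with a median of -0.82 against -0.01 over all genes. Of the 13, 11 had an unadjusted p under 0.05 and 0 were called, where 2.57% of all genes were lower at that p. The medians of the single pairs were -1.34, -0.11 and -0.88, and the median of the fit was -0.36 without untreated replicate 1. MT-ND5, a subunit of complex I, stood at 952, 108 and 249 CPM untreated and 155, 114 and 160.2 CPM with DMSO. Only untreated replicate 1 was high, and in pair 2 the DMSO library was the higher one, so the log2 change of -1.41 (SE 0.42, 95% interval -2.28 to -0.54) was -0.16 without it. MT-ND4L, another complex I subunit, had the same form, at 234, 37.1 and 89.2 CPM untreated and 27.7, 38.6 and 65 CPM with DMSO, and its log2 change of -1.52 (SE 0.47) was -0.23 without that library. MT-ATP6, a subunit of the ATP synthase, stood at 446, 175 and 404 CPM untreated and 154, 155 and 186 CPM with DMSO, lower in each pair, with a log2 change of -0.96 (SE 0.30) that was -0.53 without untreated replicate 1. MT-CYB, the complex III subunit, stood at 908, 330.4 and 585 CPM untreated and 359, 302 and 318 CPM with DMSO, a log2 change of -0.82 (SE 0.28) that was -0.36 without it. The complex IV subunits lay nearer to no difference, at -0.50 (SE 0.21) for MT-CO1, -0.52 (SE 0.23) for MT-CO2 and -0.36 (SE 0.20) for MT-CO3, and at -0.29, -0.45 and -0.34 without untreated replicate 1. MT-ND3 was nearest, at -0.18 (SE 0.23), and -0.37 without that library. MT-ND6, the mRNA read from the other strand of the genome, had a log2 change of -0.69 (SE 0.30), and -0.07 without it.

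In the control line the median of the 13 mRNAs was 0.01, with pair medians of -0.20, 0.55 and -0.28, and MT-RNR1 had a log2 change of 0.11. The difference between the lines was not called for any mitochondrial RNA in edgeR's quasi-likelihood test of the interaction. Its unadjusted p was under 0.05 for all of them except MT-ND2, MT-ND3, MT-ND6, MT-CO2 and MT-ATP8, against 2.41% of all genes. It was 0.0041 for MT-RNR1 and 0.044 for MT-RNR2 in that test, which includes untreated replicate 1. The mitochondrial RNAs are cut from shared long RNAs and are not independent of each other, so their number is not a count of separate observations. The interaction also shares the knockdown libraries with the changes given above. Nuclear genes that serve the mitochondrial genome lay near 0: of 20 factors of its copying, transcription and RNA turnover, 10 were higher and 10 lower, with a median of 0.00. TFAM, the packaging and initiation factor of that genome, stood at 65.7, 78.6 and 91.9 CPM untreated and 105, 83.1 and 99.2 CPM with DMSO, a log2 change of 0.29 (SE 0.13). The 34 nuclear genes of the respiratory chain had a median of 0.06, with NDUFV2 of complex I at 0.80 (SE 0.30) and SDHD of complex II at 0.31 (SE 0.14), the latter 0.19 without untreated replicate 1.

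**Figure D4:**
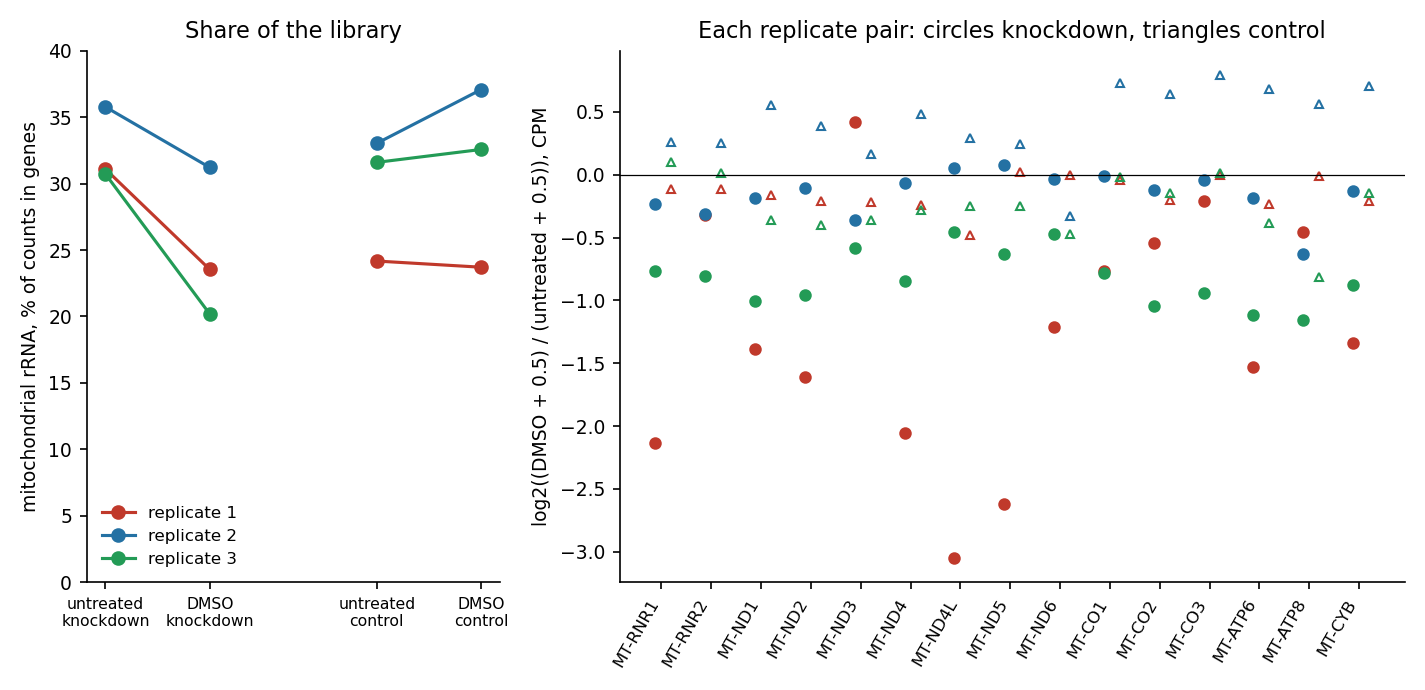
Left, mitochondrial ribosomal RNA as percent of counts in genes, untreated joined to DMSO for each replicate in both lines. Right, log2 ratio of DMSO to untreated levels with 0.5 CPM added, for 15 mitochondrial RNAs in each replicate pair (circles knockdown, triangles control). The left panel goes from 31.1%, 35.8% and 30.7% to 23.5%, 31.2% and 20.2% in the knockdown line.

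Most nuclear copies of mitochondrial genes had a negative log2 change, as their originals did, but the sizes differed. The median was -1.50 for copies at 1 CPM or more and -0.82 for the 13 mitochondrial mRNAs. MTCO3P12 had -1.71, against -0.36 for MT-CO3. Of 10 such copies at 1 CPM or more, 10 had a negative log2 change, between -2.75 and -1.13. All 10 had an unadjusted p under 0.05, where 2.57% of all genes were lower at that p. Without untreated replicate 1 these 10 lay between -0.89 (MTRNR2L10) and -0.44 (MTND2P28), and the median of the 13 mRNAs was -0.36. The 10 include MTRNR2L1, MTRNR2L6 and MTRNR2L10, which are copies of MT-RNR2 and not of an mRNA. Of the 26 tested that held counts in these 6 libraries, 22 were negative, with a median of -1.34, and 0 were called. Copies were grouped by symbol after their values were seen. IDs without a symbol, such as ENSG00000269028 described below, could not enter the group. The copies share most of their sequence with the mitochondrial RNA, so reads of one can be counted for the other, and their counts are uncertain. The stretches below are the 60 bases in which copies and original differ most, shown because they are where reads could best be told apart. Capitals mark bases that differ from the mitochondrial sequence.
MT-RNR2: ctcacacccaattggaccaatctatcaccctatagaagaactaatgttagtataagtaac
MTRNR2L1: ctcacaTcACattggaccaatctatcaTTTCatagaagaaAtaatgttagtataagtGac
MTRNR2L6: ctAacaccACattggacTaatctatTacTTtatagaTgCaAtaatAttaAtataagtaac
MTRNR2L10: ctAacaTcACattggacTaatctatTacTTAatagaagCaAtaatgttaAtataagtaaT
MT-CO3: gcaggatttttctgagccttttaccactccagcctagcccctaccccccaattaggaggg
MTCO3P12: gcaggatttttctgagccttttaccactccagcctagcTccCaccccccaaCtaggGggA
The sequences are from GENCODE release 44 mapped to GRCh37. In local alignments, MTRNR2L1 was identical to MT-RNR2 at 89.5% of 1540 aligned bases, MTRNR2L6 at 87.1% of 1382, and MTRNR2L10 at 86.3% of 1090. MTCO3P12 was identical to MT-CO3 at 98.2% of 547 bases, with 10 differing. MTCO3P12 (chr1:569756-570302, plus strand) stood at 9.91, 12.9 and 18.1 CPM untreated and 1.44, 8.2 and 7.55 CPM with DMSO. Its groups did not overlap, and its log2 change of -1.71 (SE 0.38, 95% interval -2.50 to -0.93) had an adjusted p of 0.935 in edgeR's quasi-likelihood test and was -0.88 without untreated replicate 1. MTRNR2L1 (chr17:22022437-22023991, plus strand) stood at 19.9, 19 and 17.6 CPM untreated and 1.93, 16.8 and 8.49 CPM with DMSO, and MTRNR2L6 (chr7:142374104-142375550, plus strand) at 2.99, 9.16 and 6.4 and 0.963, 5.25 and 3.27 CPM. Their log2 changes of -1.67 (SE 0.43) and -1.16 (SE 0.27) were -0.68 and -0.75 without untreated replicate 1.

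RNY1 and VTRNA1-3, short RNAs made by RNA polymerase III, were far higher in untreated replicate 1 than in the other 5 libraries. Y RNAs are short RNAs bound by the Ro protein. RNY1 (chr7:148684228-148684340, minus strand) stood at 98.7, 17.9 and 7.26 CPM untreated and 0.385, 19 and 7.35 CPM with DMSO. Untreated replicate 1 was the highest and DMSO replicate 1 the lowest of the 6, while in pairs 2 and 3 both libraries lay close together. The log2 change was -3.40 (SE 1.10, 95% interval -5.70 to -1.10) with all libraries, -0.27 without untreated replicate 1 and 0.07 without both libraries of that number. VTRNA1-3, a vault RNA, stood at 34.2, 3.94 and 2.81 CPM untreated and 5.46, 3.15 and 4.34 CPM with DMSO, again high in untreated replicate 1 only. RNY5, another Y RNA, was rare and did not overlap, at 0.31, 0.176 and 0.209 CPM untreated and 0.0722, 0.0828 and 0.114 CPM with DMSO. RN7SL2, the RNA of the signal recognition particle, is also made by RNA polymerase III and did not share this: it stood at 5866, 2775 and 1309 CPM untreated and 5421, 2533 and 1734 CPM with DMSO, a log2 change of 0.06 (SE 0.22). Of the 7 polymerase III transcripts tested, 6 were lower, 6 at an unadjusted p under 0.05, against 2.57% of all genes. The median of the 7 was -1.40, and -0.41 without untreated replicate 1. Y RNAs, vault RNAs and snoRNAs have near-identical copies elsewhere in the genome, and their counts are uncertain for that reason.

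Small nucleolar RNAs, which guide the modification of ribosomal RNA, are cut from introns of their host genes. Of 125 tested, 84 were lower and 41 higher with DMSO, and 0 were called. At an unadjusted p under 0.05, 26 of them were lower, against 2.57% of all genes. The median of the 125 was -0.21, and -0.08 without untreated replicate 1. The copy of SNORA22 at chr7:65220513-65220646, plus strand stood at 98.3, 139.8 and 25 CPM untreated and 1.95, 119 and 29.2 CPM with DMSO. DMSO replicate 1 was the low value here, and the control libraries of replicate 1 were as low, at 2.17 CPM untreated and 2.68 CPM with DMSO. Without untreated replicate 1 its log2 change of -3.28 (SE 0.93) became -0.01. SNORA38 stood at 7.37, 1.76 and 0.179 CPM untreated and 0.409, 0.552 and 0.227 CPM with DMSO, and SNORA7B at 8.92, 1.94 and 0.448 and 0.554, 1.1 and 0.426 CPM. Their log2 changes of -2.70 (SE 0.78) and -2.29 (SE 0.67) were -1.04 and -0.58 without that library. The 18 host genes had a median of -0.04. SNHG22, a host gene by its symbol, is not in that list and is described below. The smallest p in the list belonged to SNHG7, at 170.4, 128 and 55.9 CPM untreated and 52.8, 104 and 61.7 CPM with DMSO, where only untreated replicate 1 lay far from its partner.

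The 10 genes described on either side were chosen for their small p among genes with 1 CPM in the higher group and 1 sign in all 3 pairs, so the agreement of their pairs is part of the choice. Genes named from here on had an adjusted p of 1 in edgeR's quasi-likelihood test unless another is given. The smallest p on the lower side belonged to ENSG00000269028, an ID that the tables used here pair with no symbol or position, at 811, 2153 and 1979 CPM untreated and 178, 1239 and 979.8 CPM with DMSO. The groups overlapped, with replicate 1 the lowest in both. Its log2 change was -1.44 (SE 0.27, 95% interval -2.01 to -0.88), with an adjusted p of 0.632 by edgeR, 0.0355 by edgeR when untreated replicate 2 was left out and 0.00697 by DESeq2. The log2 change was -0.86 without untreated replicate 1. The control line gave 0.06. AC079949.1 (chr12:127650616-127650672, minus strand), annotated as a miRNA gene, stood at 6.18, 0.634 and 0.688 CPM untreated and 0.361, 0.11 and 0.312 CPM with DMSO, with an adjusted p of 0.879 by edgeR and 0.0218 by DESeq2. Its log2 change of -2.94 (SE 0.61, 95% interval -4.20 to -1.67) was -1.54 without untreated replicate 1, and the groups did not overlap. SNHG22, a long noncoding RNA (chr18:47340335-47377429, plus strand), stood at 2.23, 0.599 and 0.807 CPM untreated and 0.168, 0.221 and 0.369 CPM with DMSO, a log2 change of -2.15 (SE 0.46, 95% interval -3.10 to -1.20) with an adjusted p of 0.879 by edgeR. It did not overlap between the groups and gave -1.61 without untreated replicate 1. AC079949.1 and SNHG22 reached 1 CPM only in untreated replicate 1.

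Of the 10 genes on the lower side, ATN1, MTRNR2L6 and MTRNR2L1 are annotated as protein-coding. ATN1 encodes the transcriptional corepressor atrophin-1 (chr12:7033626-7051484, plus strand). It stood at 45.3, 10.3 and 12.8 CPM untreated and 12.9, 7.23 and 11.2 CPM with DMSO, a log2 change of -0.91 (SE 0.23, 95% interval -1.38 to -0.44) that was -0.43 without untreated replicate 1. POLR2A, the largest subunit of RNA polymerase II, stood at 145, 25.2 and 27.9 CPM untreated and 35, 23.2 and 32.1 CPM with DMSO. SON, a splicing cofactor of nuclear speckles, stood at 225, 70.2 and 91.3 CPM untreated and 74.6, 71.9 and 102 CPM with DMSO. In both, untreated replicate 1 was the single high library, and the log2 changes of -0.91 (SE 0.35) and -0.61 (SE 0.28) became 0.08 and 0.10 without it. KDM6B, a histone H3K27 demethylase, stood at 18.5, 8.42 and 4.93 CPM untreated and 6.52, 7.51 and 3.86 CPM with DMSO, lower in each pair, with a log2 change of -0.71 (SE 0.24) that was -0.33 without untreated replicate 1. TFAP2A, a luminal transcription factor, stood at 42.5, 30.9 and 36.9 CPM untreated and 30.3, 27.1 and 29 CPM with DMSO without overlap. Its log2 change was -0.34 (SE 0.12, 95% interval -0.59 to -0.10), and -0.27 without untreated replicate 1. The 10 also held the pseudogene ENSG00000178715, with a log2 change of -2.11 (SE 0.52) that was -1.24 without untreated replicate 1. The long noncoding ENSG00000230803 stood at 12.3, 0.634 and 1.52 CPM untreated and 0.481, 0.552 and 0.795 CPM with DMSO, and its log2 change of -2.86 (SE 0.71) was -0.58 without that library.

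On the higher side 9 of the 10 genes were mRNAs, with log2 changes of 0.33 to 0.63. CENPF, a kinetochore protein of dividing cells (chr1:214776528-214837917, plus strand), stood at 205, 279.9 and 327 CPM untreated and 282, 311 and 474 CPM with DMSO. The groups overlapped, and its log2 change was 0.38 (SE 0.13, 95% interval 0.12 to 0.65) with all libraries and 0.38 without untreated replicate 1. CENPE, the motor protein of the kinetochore, stood at 32.5, 43.6 and 55.4 CPM untreated and 48.4, 58 and 61.4 CPM with DMSO, a log2 change of 0.38 (SE 0.13). EID1, an inhibitor of histone acetyltransferases, stood at 32.1, 61.1 and 64.4 CPM untreated and 73.2, 74.2 and 65.3 CPM with DMSO. Its groups did not overlap, but its log2 change of 0.48 (SE 0.17) was 0.27 without untreated replicate 1. POLR3G, a subunit of RNA polymerase III, stood at 3.98, 2.78 and 9.6 CPM untreated and 7.77, 4.92 and 11.2 CPM with DMSO, a log2 change of 0.63 (SE 0.22, 95% interval 0.17 to 1.09). FDX1, the mitochondrial electron carrier ferredoxin 1, stood at 11.1, 12.2 and 14.9 CPM untreated and 18.7, 16.3 and 15.9 CPM with DMSO without overlap, a log2 change of 0.42 (SE 0.15) that was 0.27 without untreated replicate 1. The other 5 of the 10 named were CIBAR1 (0.37), ZBTB10 (0.33), CRYBG3 (0.60), TLCD4 (0.41) and the long noncoding ENSG00000260000 (0.88), as log2 changes. Without untreated replicate 1 the 10 lay between 0.27 (EID1) and 0.67 (CRYBG3).

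The gene lists gave no call either. Of 37 lists with 1016 members tested, 0 held a called gene, and 34 had a median log2 change within 0.25 of 0, against -0.01 over all genes. The other 3 were the mitochondrial mRNAs, the mitochondrial ribosomal RNAs and the polymerase III transcripts described above. The share of all genes at an unadjusted p under 0.05, 3.51%, is the background for the counts that follow.

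**Figure D5:**
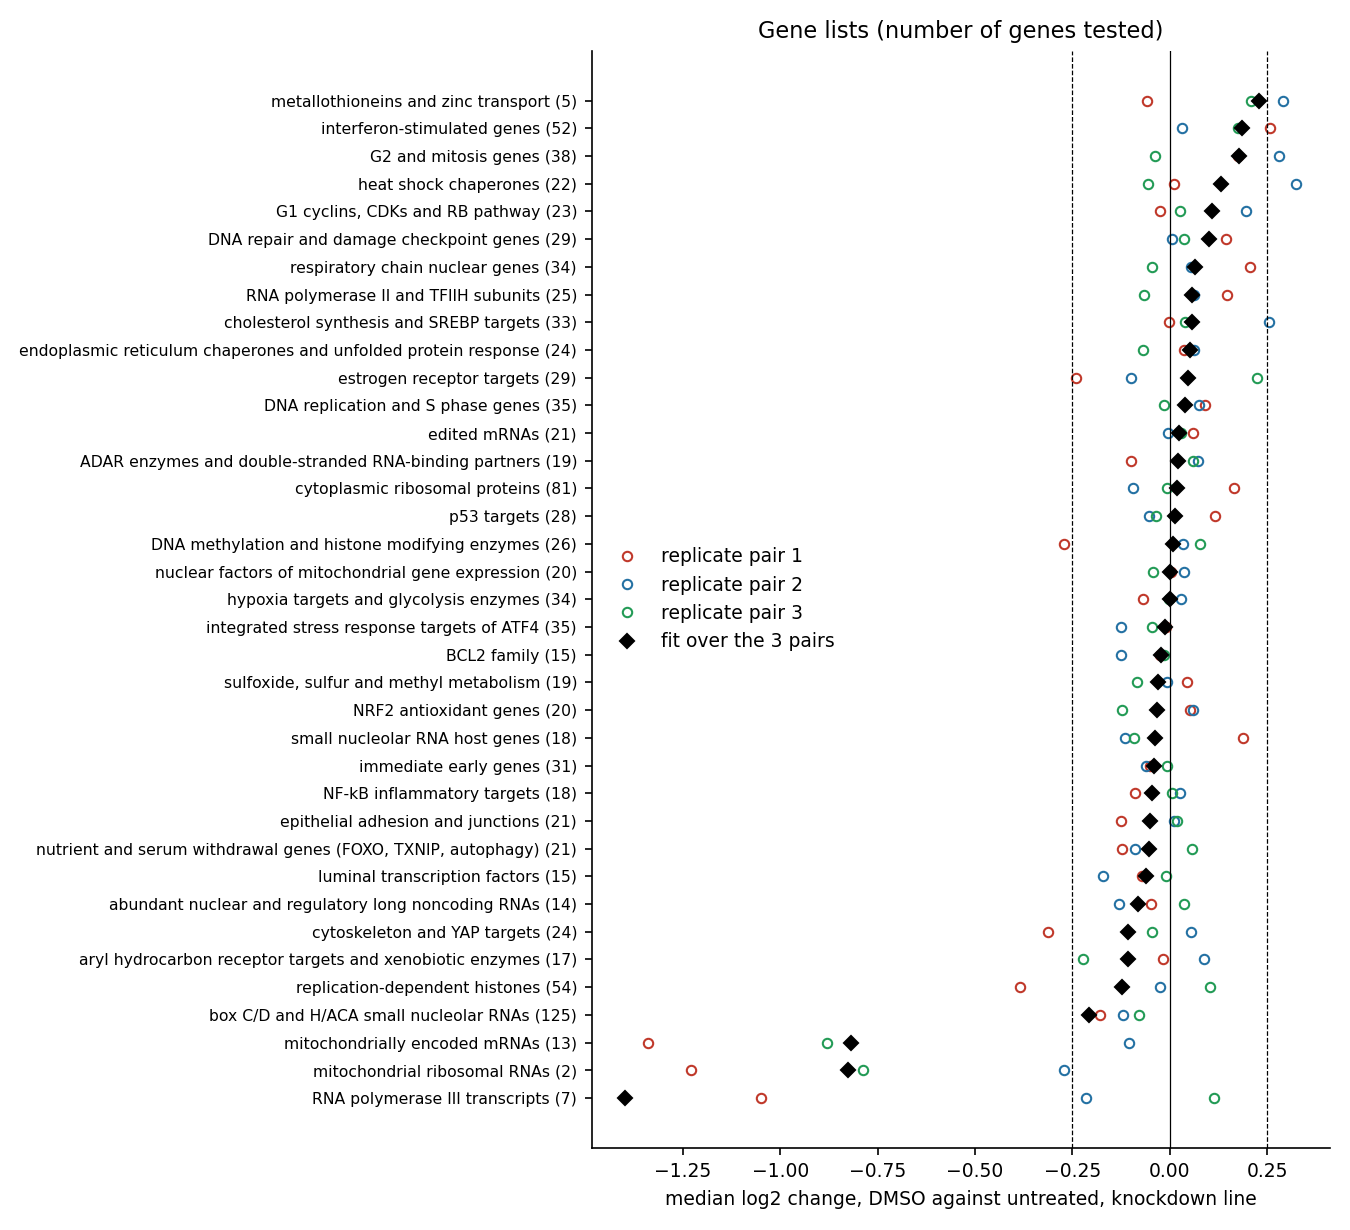
Median log2 change with DMSO in the knockdown line (x axis) for 37 gene lists (y axis, number of genes tested in brackets), black diamonds from the fit over the 3 pairs and open circles from single replicate pairs. The dashed lines stand at -0.25 and 0.25, and 34 of the 37 diamonds lie between them.

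Stress programmes that solvents can set off lay close to 0. Targets of ATF4, through which the integrated stress response acts on genes, had a median of -0.01, with 15 of 35 higher and 0 at an unadjusted p under 0.05. Their smallest p belonged to AARS1, the alanine tRNA ligase, at 298, 303 and 286 CPM untreated and 233, 230.5 and 257 CPM with DMSO, a log2 change of -0.30 (SE 0.16). Chaperones and unfolded protein response genes of the endoplasmic reticulum had a median of 0.05 over 24 genes. HSPA5, the chaperone BiP, stood at 394, 147 and 207 CPM untreated and 165, 154 and 178 CPM with DMSO, and its log2 change of -0.59 (SE 0.25) became -0.01 without untreated replicate 1. Heat shock chaperones had a median of 0.13, with 18 of 22 higher and 0 at an unadjusted p under 0.05. Their pair medians were 0.01, 0.32 and -0.06, and the median was 0.01 without untreated replicate 2. HSPD1, the mitochondrial chaperonin, stood at 588, 562 and 909 CPM untreated and 803, 644 and 887 CPM with DMSO, a log2 change of 0.20 (SE 0.13, 95% interval -0.06 to 0.47). DNAJA1, a cochaperone of HSP70, had a log2 change of 0.35 (SE 0.21). NRF2 antioxidant genes had a median of -0.03, and NFE2L2, which encodes NRF2, stood at 68.6, 76 and 65.1 CPM untreated and 36.2, 65.1 and 58.2 CPM with DMSO, lower in each pair with overlapping groups. Its log2 change of -0.48 (SE 0.18) was -0.13 without untreated replicate 1.

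Lists of xenobiotic, sulfur and zinc metabolism also had medians within 0.25 of 0. Targets of the aryl hydrocarbon receptor and drug-metabolizing enzymes had a median of -0.11 over 17 genes. CYP1A1, the receptor's classic target, stood at 3.27, 0.81 and 37.1 CPM untreated and 3.15, 0.911 and 10.7 CPM with DMSO. Its log2 change of -1.04 (SE 0.44, 95% interval -1.97 to -0.12) came from pair 3, where the untreated library held the highest value, and it was 0.39 without the untreated library of replicate 3. The 19 genes of sulfoxide reduction and of sulfur and methyl metabolism had a median of -0.03. MSRA, a methionine sulfoxide reductase, had a log2 change of -0.33 (SE 0.20), and MAT2A, which makes the methyl donor, -0.28 (SE 0.17). Without untreated replicate 1 these were -0.12 and -0.10. The 5 metallothionein and zinc transport genes had a median of 0.23, pair medians of -0.06, 0.29 and 0.21, and a median of 0.06 without untreated replicate 2 and -0.11 without DMSO replicate 2. Among them MT2A stood at 8.21, 5.28 and 4.6 CPM untreated and 7.87, 7.48 and 5.39 CPM with DMSO. Enzymes of DNA methylation and histone modification had a median of 0.01, 13 higher and 13 lower.

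Cell cycle lists leaned slightly to the higher side. Of 38 G2 and mitosis genes, 32 were higher with DMSO and 5 of these had an unadjusted p under 0.05, with a median of 0.18. The pair medians were 0.17, 0.28 and -0.04, so pair 3 did not share the direction. NDC80, part of the kinetochore's microtubule anchor, stood at 33.9, 41.2 and 51.8 CPM untreated and 57.8, 54.5 and 50.1 CPM with DMSO, a log2 change of 0.39 (SE 0.15). Genes of DNA replication had a median of 0.04. Among them GINS1, of the replicative helicase, had a log2 change of 0.36 (SE 0.16), and TYMS, thymidylate synthase, stood at 27.9, 13.7 and 15.6 CPM untreated and 11.6, 11.8 and 13.3 CPM with DMSO. The TYMS groups did not overlap, and its log2 change of -0.67 (SE 0.24) was -0.12 without untreated replicate 1. G1 cyclins and RB pathway genes had a median of 0.11, p53 targets 0.01, DNA repair genes 0.10 and BCL2 family genes -0.02. Replication-dependent histones, whose mRNAs have no poly(A) tail, had a median of -0.12 with 47 of 54 lower, and 0.01 without untreated replicate 1.

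Interferon-stimulated genes, which follow the sensing of double-stranded RNA, had a median log2 change of 0.19. Of 52 tested, 39 were higher with DMSO, 0 were called and 0 had an unadjusted p under 0.05. The pair medians were 0.26, 0.03 and 0.17, and the median was 0.04 without DMSO replicate 1. RSAD2, the antiviral enzyme viperin, had their smallest p and stood at 7.9, 8.95 and 0.568 CPM untreated and 15.5, 10.2 and 0.568 CPM with DMSO, a log2 change of 0.51 (SE 0.29, 95% interval -0.10 to 1.11). PARP14, an ADP-ribosyltransferase, stood at 176, 217 and 52 CPM untreated and 209.7, 244 and 66.6 CPM with DMSO, and SAMD9, an antiviral restriction factor, at 14.5, 24.9 and 4.07 and 20.5, 27.8 and 4.83 CPM. In all 3 genes replicate 3 was the lowest library of both groups, and the spread between numbers was wider than that between DMSO and untreated. The 21 mRNAs known to carry editing sites had a median of 0.02, and the 19 editing enzymes and double-stranded RNA-binding partners 0.02. NF-kB targets had a median of -0.05.

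Lists of the luminal programme and of serum and nutrient supply lay near 0 as well. Estrogen receptor targets had a median of 0.05, with IGFBP4, a binding protein of insulin-like growth factors, at 58.4, 26.6 and 12.8 CPM untreated and 24.3, 22.1 and 15.7 CPM with DMSO. TFF1, the secreted trefoil peptide, had a log2 change of 0.41 (SE 0.28). Luminal transcription factors had a median of -0.06, adhesion genes -0.05 and cytoskeletal and YAP target genes -0.11. Immediate early genes had a median of -0.04, hypoxia and glycolysis genes -0.00 and cytoplasmic ribosomal proteins 0.02. Cholesterol synthesis genes had a median of 0.06, with EBP, a sterol isomerase, at 0.33 (SE 0.14), which was 0.21 without untreated replicate 1, and STARD4, a sterol carrier, at 0.46 (SE 0.21). Genes that follow serum and nutrient withdrawal had a median of -0.05. MAP1LC3B, of the autophagosome membrane, stood at 27.5, 12.3 and 15.7 CPM untreated and 12.6, 10.9 and 11 CPM with DMSO, lower in each pair, and its log2 change of -0.68 (SE 0.21) was -0.27 without untreated replicate 1. RNA polymerase II and TFIIH genes had a median of 0.06, and abundant nuclear noncoding RNAs -0.08, with MALAT1 at -0.69 (SE 0.34) and -0.15 without untreated replicate 1.

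The control line, which shares no library with the knockdown line, gave the same count. DMSO against untreated called 0 of 21285 genes (0.0%) there in edgeR's quasi-likelihood test, with 274 (1.29%) at an unadjusted p under 0.05, and DESeq2 called 0 with 246. The difference between the lines in the response to DMSO was called for 0 genes (0.0%) by edgeR's interaction test and for 0 by DESeq2, with 512 (2.41%) and 504 at an unadjusted p under 0.05. Of the genes named above, CENPF had a log2 change of -0.15 in the control line against 0.38 in the knockdown line, and EID1 -0.04 against 0.48. SNHG22 had 0.35 against -2.15, MTCO3P12 0.45 against -1.71 and RNY1 -0.08 against -3.40. None of these differences was called. Across 14038 genes the log2 changes of the knockdown and control lines, from the edgeR fit, correlated at r = -0.07. This is a description over genes that are not independent replicates.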

How the data were processed

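Total RNA of 18 libraries in 6 groups of 3 was analysed, of which 6 enter the comparison. The deposited files hold raw counts of reads per gene, 1 library per file and without normalization. Per the submitters' processing notes, hg19, STAR 2.4.2a, HTSeq 0.6.1, DESeq2 1.4.5 and R 3.1 were used, and whether HTSeq counted by strand is not given in the sources used here. Reads of overlapping, antisense or near-identical genes may therefore be split or lost. Symbols and positions were taken from GENCODE release 44 on GRCh37, which held 58822 (97.6%) of the 60252 gene IDs. Library sizes and tests leave out the 5 tallies of reads that HTSeq gave to no gene, between 24.9% and 30.5% of the tallied reads in the 6 libraries.

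Counts were scaled by TMM, filtered by group (21285 genes passed) and tested two-sided with edgeR 4.0.16 (limma 3.58.1) in R 4.3.3, in 1 quasi-likelihood fit of 18 libraries blocked by replicate number, which left 10 residual degrees of freedom. Benjamini-Hochberg adjustment ran over all genes tested, with a threshold of 0.05. Standard errors are the log2 change divided by the square root of F, and 95% intervals use the t quantile. Pair differences are log2 ratios with 0.5 CPM added, over genes with 1 CPM or more on average.

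Equal replicate numbers pair the libraries: deviations from group means correlated at 0.31 to 0.69 between groups at the same number (45 pairs). At different numbers they correlated at -0.52 to 3.4e-05 (90 pairs). Deviations within a group cancel out, so positive values at the same number bring negative ones at different numbers. The latter are no separate evidence of pairing. For the knockdown DMSO and untreated libraries the 3 correlations lay between 0.54 and 0.62. Within each group no library was a copy of another, as the chi-square between replicates was at least 53.4 per degree of freedom. Libraries of different groups were not put to this check. On counts simulated for this comparison over 21285 genes, the fit recovered 80% of 100 genes changed 2-fold and 97% of 100 changed 4-fold. It made 5 false calls, and 95.3% of the intervals of unchanged genes held the true value. The changed genes were drawn from those with a mean of at least 1 CPM, so recovery below that level was not measured. They were planted together, and the adjustment asks a smaller p of a lone changed gene than of many. Recovery of a lone change was not measured. Spread was set at the fitted trend, and no library was made to stand apart as untreated replicate 1 did.

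The comparison and the gene lists were chosen with earlier results of these data known, so no list is independent evidence. Named genes were the ADAR family, the 10 genes per direction with the smallest p among those at 1 CPM in the higher group and of 1 sign in all 3 pairs, and up to 3 members of each list by p, of which the text gives a part. Symbols for nuclear copies of mitochondrial genes and the short RNAs named beside RNY1 were chosen after their values were seen. The result for 1 short RNA of the polymerase III list is not reported here. Alternatives were DESeq2 1.42.0, its size factors, other filters, no block, subsets of libraries and leaving out libraries. The triptolide libraries entered the fit and are not described.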

Additional observations from a re-analysis of the deposited data

How the results depend on the processing

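Counts of calls in the knockdown comparison stayed at 0 under 14 of 18 alternatives. No low-count filter gave 120 calls (2 higher, 118 lower), of which 119 were among the 21285 genes and 78 of the 118 had their highest of 12 values in untreated replicate 1; the fitted prior degrees of freedom were 10.5 with the filter and infinite without. An alternative added after seeing the data, no filter and without that library, gave 6, all among the 120. DESeq2 gave 2, and leaving out libraries 0 to 1, the 1 being ENSG00000269028 (adjusted p 0.0355 by edgeR) without knockdown untreated replicate 2. The line difference gave 57 calls without the filter and 5 in the added alternative, and 0 otherwise. With no replicate block the count was 0, with 208 genes at an unadjusted p under 0.05 against 747 in the paired fit, so pairing changed no call. Over all alternatives that number ran from 208 to 1389, highest without knockdown untreated replicate 3, and genes bounded within 2-fold ran from 11015 to 14545. Under the alternatives 610 list medians moved by less than the spread of the pairs and 54 by more. Directions of single genes turned in 34 values and held in the others. Leaving out libraries gave log2 changes of -0.12 to 0.17 for ADAR, -0.25 to 0.27 for ADARB1, -0.11 to 0.44 for MT2A, -1.53 to 0.39 for CYP1A1, -0.45 to 0.0300 for KDM3A, -0.69 to 0.0686 for SPDEF, -0.39 to 0.0757 for DSG2, -0.33 to 0.0391 for JUP and -1.16 to 0.15 for CCN1. They gave -0.96 to 0.10 for SON, -1.35 to 0.0825 for POLR2A, -1.19 to 0.0385 for SNHG7, -5.05 to 0.0661 for RNY1 and -0.13 to 0.60 for RPS27A. The added alternative gave 0.21 for ADAR, 0.26 for ADARB1, 0.0276 for HSPA5, 0.0696 for KDM3A, 0.0897 for DSG2, 0.19 for CCN1, 0.14 for SON, 0.12 for POLR2A, 0.0798 for SNHG7 and 0.0258 for SNORA22. The causes were not tested. Depth limits genes under 1 CPM most, as 11.1% of them had intervals within 2-fold.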

Other observations

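By kind of gene, the 14704 protein-coding genes tested had a median log2 change of 0.00 with DMSO in the knockdown line, and the 3511 long noncoding RNAs -0.03. Processed pseudogenes, copies of mRNAs put back into the genome, had a median of -0.26, with 956 of 1365 lower. Of these, 130 had an unadjusted p under 0.05, where 2.57% of all genes were lower at that p. The 63 small nuclear RNAs had a median of -0.38 and the 80 RNAs of the miscellaneous class, which holds the Y RNAs, -0.27. The medians of pairs 1 to 3, with 0.5 CPM added, were -0.16, -0.12 and -0.03 for the processed pseudogenes. They were -0.11, -0.09 and -0.11 for the small nuclear RNAs and -0.11, -0.25 and 0.04 for the miscellaneous class. Class medians without untreated replicate 1 are not given here. In the control line the medians of these 3 classes were 0.03, 0.19 and 0.22. No member of any class was called, and what sets these medians was not tested.

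The share of reads that matched several places in the genome was 12.8%, 16.0% and 11.7% in untreated replicates 1 to 3 and 10.2%, 14.6% and 11.7% in the DMSO replicates of the knockdown line. Reads in no annotated feature took 10.4%, 7.69% and 6.73% untreated and 11.8%, 7.54% and 8.55% with DMSO. The number of genes with at least 1 count was higher with DMSO in 3 of 3 pairs, by 318, 627 and 689 genes, with an exact two-sided paired permutation p of 0.25, the smallest that 3 pairs allow. In the control line that number differed by 1001, -3550 and 25 genes.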
